A study of Mus musculus with 12 samples.

Results

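Cytosolic ribosomal protein genes, which encode the proteins of the small (40S) and large (60S) subunits of the ribosome, were followed through male germ cell development in the mouse and in its culture counterpart. The genes were those whose symbol is Rpl or Rps, or the stalk form Rplp, followed by a number and at most a final a, l, x or y, with a probe set on the array that carries that symbol alone. The rule gave 45 genes of the 18193 with such a probe set, 21 of the 40S and 24 of the 60S subunit. Where a gene had several probe sets, the 1 with the highest mean over the 12 arrays stood for it. Of the 45 genes, 43 passed a filter on dim probe sets and entered a test with 14197 genes in all. Rps16 and Rpl3l, a paralog of Rpl3, did not pass it. Another 28 symbols of the family, Rpl10 and Rpl36a among them, were carried only by probe sets shared with other genes and were not measured.

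The 4 groups each held 3 arrays. Spermatid-like cells (SLC) were made by in vitro differentiation, and round spermatids (RS), the haploid cells that follow meiosis, came from the testis of BDF1 mice at 3 weeks. Primordial germ cell-like cells (PGCLC) were taken at day 6 of in vitro differentiation, and primordial germ cells (PGC), the fetal founders of the germ line, came from the genital ridge of BDF1 male fetuses at E12.5. All cells were collected by FACS, and total RNA was labelled by 3' in vitro transcription. The gate, the cell line behind both cultured groups and the cells or factors present in culture were not given in the sources used here. Samples are labelled as biological replicates, but whether each came from its own animals or culture is not said. The comparisons ask how the in vitro cells differed from their counterparts of the animal, and how the spermatid stage differed from the PGC stage in each setting. The RS and PGC arrays, and likewise the SLC and PGCLC arrays, enter several comparisons.

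Each ribosome holds a single copy of nearly all of its proteins, so the genes are usually expressed together and at high level in growing cells. Their mRNAs mostly begin with a C and a run of pyrimidines (the TOP motif), through which the mTOR pathway and Larp1 control their translation. Spermatogenesis is known for a silenced X chromosome in male meiosis and for autosomal copies of X-linked ribosomal protein genes, such as Rpl39l for Rpl39, which are expressed in the testis.

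Start sites are shown for both X-linked members, for the paralog Rpl39l, for 2 members that differed widely between stages (Rpl14 and Rpl12) and for Rps7, which was called in no comparison. The sequences are RefSeq's, build GRCm38.p6, read 5′ to 3′ on the gene's own strand, with 60 bases before the annotated start and 30 from it onward. Capitals mark a TOP-like tract (a C followed by at least 5 pyrimidines, of which 1 or more is a T, beginning between 10 bases before the start and 30 bases after it) or the motif CCGGAAG on either strand, which is the core bound by ETS-family factors such as GABP. A tract or motif is marked only if all of it, to the last pyrimidine of a run, lies inside the stretch shown. The TOP-like tract of Rps7 runs past the end of its stretch and is therefore in small letters.
Rps4x, chrX:102189362-102189451, minus strand: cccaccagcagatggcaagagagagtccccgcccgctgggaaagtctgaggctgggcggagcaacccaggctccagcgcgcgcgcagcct
Rpl39, chrX:37085193-37085282, minus strand: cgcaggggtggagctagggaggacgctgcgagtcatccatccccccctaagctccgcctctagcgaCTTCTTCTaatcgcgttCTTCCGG
Rpl39l, chr16:10170168-10170257, plus strand: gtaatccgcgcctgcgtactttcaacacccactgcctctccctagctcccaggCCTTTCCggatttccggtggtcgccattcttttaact
Rpl14, chr9:120571457-120571546, plus strand: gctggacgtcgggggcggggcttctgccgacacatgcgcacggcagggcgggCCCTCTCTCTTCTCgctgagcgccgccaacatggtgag
Rpl12, chr2:32961652-32961741, plus strand: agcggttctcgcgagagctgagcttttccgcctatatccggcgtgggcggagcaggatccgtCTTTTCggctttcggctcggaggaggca
Rps7, chr12:28635924-28636013, minus strand: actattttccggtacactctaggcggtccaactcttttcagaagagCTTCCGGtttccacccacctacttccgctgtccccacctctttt

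A promoter was listed for 39 of the 45 genes, as 250 bases before and 50 bases after the start. A TOP-like tract was found in 30 of these 39 genes (76.9%), against 33% of the 27025 genes in the same table. On the opposite strand the same tract was found in 23.1% of the ribosomal protein genes, against 39.2% of all genes. The motif CCGGAAG, on either strand, was found in 48.7% of the ribosomal protein genes, against 9.93% of all genes. AAGATGGC, the core of the YY1 motif, was found on either strand in 7.69% against 3.19%, and TATAAA in 12.8% against 15.7%. In Rps4x neither a TOP-like tract nor CCGGAAG lay wholly inside the stretch shown. A match is a description of letters and not of binding.

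The ribosomal protein genes lay at the bright end of the arrays in the fetal stage, in the animal and in culture. Deposited signals are in linear intensity units after a scaling that gave each array a trimmed mean of 500.0. The median gene of the family had a mean signal of 10815 units in SLC, 8417 in RS, 22990 in PGCLC and 23503 in PGC. The 43 genes past the filter held 1.497% ± 0.011 of the summed signal in SLC, 1.22% ± 0.036 in RS, 2.51% ± 0.013 in PGCLC and 2.48% ± 0.11 in PGC (SD, n = 3 each). Both spermatid groups thus lay below both PGC groups. Of the genes with a mean signal above 20000 units, the family supplied 4 of 21 in SLC, 5 of 76 in RS, 25 of 45 in PGCLC and 25 of 48 in PGC. Replicates were close: the median SD of a family gene was 0.05 in SLC, 0.09 in RS, 0.05 in PGCLC and 0.09 in PGC on the log2 scale, against 0.13, 0.17, 0.30 and 0.13 for all genes in the same order of groups. A lower signal from fewer expressing cells and from less RNA per cell cannot be told apart in these bulk samples, and the scaling removes any change in total RNA.

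**Figure D1:**
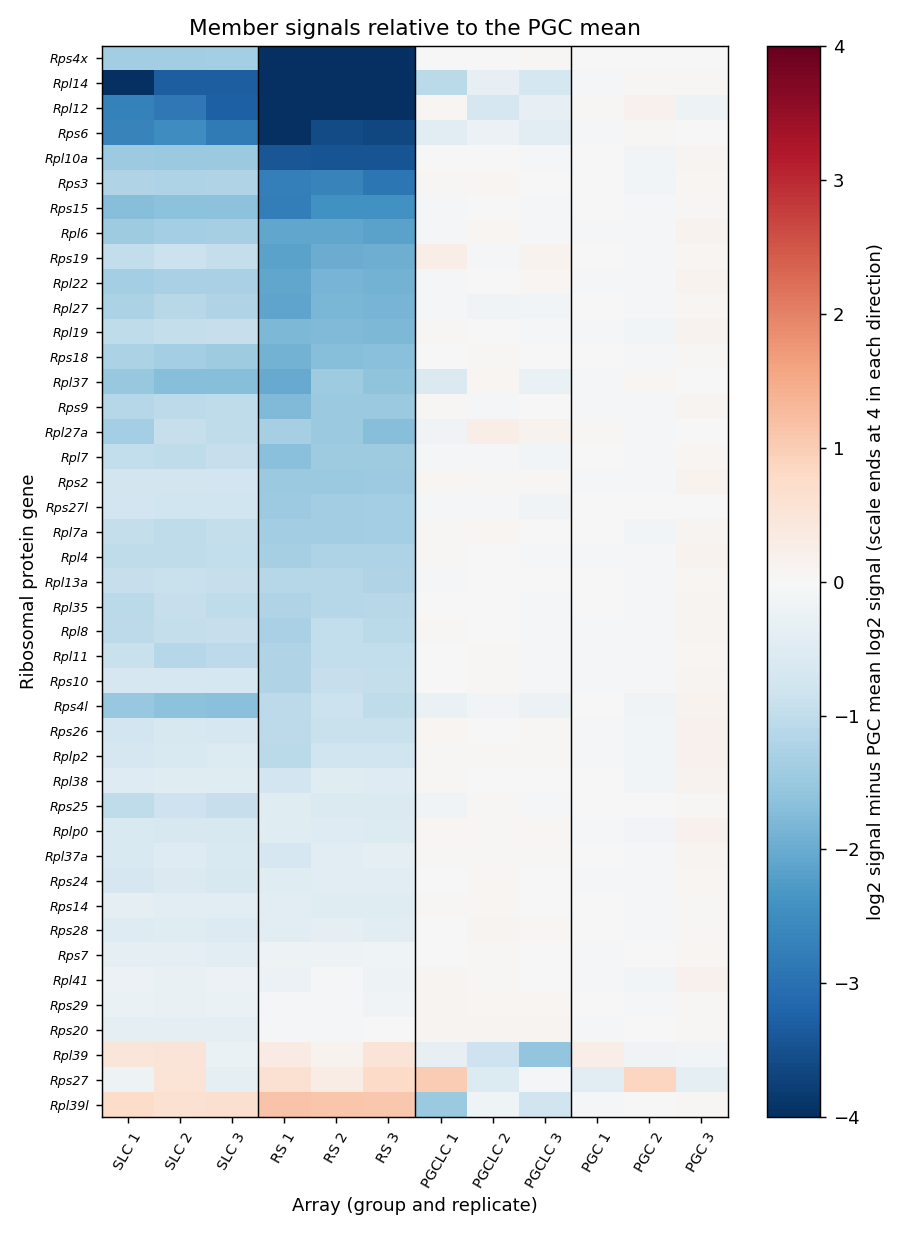
Signals of the 43 measured ribosomal protein genes on each array, as log2 signal minus the mean of the 3 PGC arrays (colour scale ending at 4 in each direction). Rows run in the order of the RS minus PGC difference, with Rps4x at the top and Rpl39l at the bottom. Columns are the 3 arrays of SLC, RS, PGCLC and PGC, and most rows are blue in both spermatid groups and near 0 in PGCLC.

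The labels were checked against marker lists. The summed level of 12 spermatid markers was 145500 to 151167 units in SLC, 201813 to 214853 in RS, 294.2 to 394.9 in PGCLC and 300.6 to 483.4 in PGC. The 9 measured PGC markers of 11 summed to 8934.2 to 10157.9 units in SLC, 14307.1 to 14943.2 in RS, 29859.5 to 60590 in PGCLC and 66395.3 to 69934.6 in PGC. Ddx4 carried that sum in both spermatid groups, at 7461 ± 601 units in SLC and 11380 ± 438 in RS, against 7327 ± 341 in PGC (SD, n = 3 each). Nanog and Tfap2c lay under 30.7 units on all SLC and RS arrays. A call in the comparisons below needs a limma adjusted p under 0.05 and a change of at least 2-fold, and "rose" and "fell" are written only of called genes. Values under the 25th percentile of the table, 30.7 units, were set to it as a floor before log2 was taken.

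Between PGC and RS, most of the family fell, to very different extents. In RS 26 of the 43 genes, 60.5%, were called lower than in PGC, where 37.7% of all genes tested were, and 1 was called higher, against 31.8% of all genes. Arrays did not overlap in 38 genes lower in RS, where 46.7% of all genes had no overlap in that direction, and in 1 gene higher, against 38.9%. The median log2 difference of the family was -1.16, against -0.23 for all genes tested. Genes of the 60S subunit fell in 16 of 23 cases, with a median difference of -1.27, and genes of the 40S subunit in 10 of 20, with a median of -0.999. The middle of the family, by quartiles, spanned -1.86 to -0.50.

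Rps4x, the X-linked gene of the 40S protein S4, fell furthest. It measured 331, 361 and 363 units in RS, against 28526, 28033 and 28464 units in PGC. The groups did not overlap, and the difference of -6.33 ± 0.05 (log2, SE) is 80.7-fold (limma, adjusted p = 4.06e-15). Rpl14, of the 60S subunit, measured 3, 20 and 16 units in RS, against 1922, 2080 and 2078 units in PGC. All 3 RS arrays lay under the floor, so the gene fell at least 65.9-fold (limma, adjusted p = 4.47e-10). Rpl12, part of the base of the 60S stalk that recruits translation factors, measured 83, 63 and 59 units in RS, against 1812, 1960 and 1517 units in PGC. It fell 25.9-fold (log2 difference -4.70 ± 0.22, limma, adjusted p = 1.05e-09), with no overlap between the groups. Rps6, the 40S protein that S6 kinases phosphorylate, measured 67, 120 and 114 units in RS, against 1384, 1495 and 1438 units in PGC, and fell 14.8-fold (limma, adjusted p = 3.13e-09). Rpl10a, a protein of the mobile L1 stalk of the 60S subunit, came next, with 2262, 2197 and 2240 units in RS, against 24554, 22332 and 26159 units in PGC. It fell 10.9-fold (limma, adjusted p = 1.41e-13).

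Rpl11 and Rpl22, whose proteins are known to act on the p53 pathway as well as in the 60S subunit, both fell in RS, with log2 differences of -1.05 and -1.95. The call of Rpl11 sat at the 2-fold limit and was lost when RS replicate 1 was left out, where the difference was -0.98. Rps27l, a p53-induced paralog of Rps27, fell 2.65-fold, and Rps27 measured 415 ± 65 units in RS and 306 ± 170 units in PGC (SD, n = 3 each) and was not called. Rplp0 and Rplp2, of the acidic stalk that contacts elongation factors, differed by -0.51 and -0.89 on the log2 scale and were not called, nor was Rpl38, at -0.60, known for its part in the translation of Hox mRNAs. At the other end, Rps20, a 40S protein chosen here after its values were seen, measured 25694, 25961 and 26444 units in RS, against 25854, 26930 and 27592 units in PGC. These arrays overlapped, and the difference was -0.04 (limma, adjusted p = 0.317). A second probe set of Rps20 gave -0.13, while its 2 dim ones gave -3.27 and -2.57. In all, 14 genes were called in no comparison, 9 of them of the 40S subunit, which supplied 20 of the 43 measured genes. The same count was not made over all genes.

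The extent of the fall was set against the brightness of each gene in PGC and the letters at its start. Across the 43 genes, Spearman's rho between the mean PGC signal and the RS minus PGC difference was 0.13, a description over probe sets that share the same arrays. The median difference was -1.59 for the 8 genes under 6000 units in PGC and -1.16 for the 35 others. Among the largest falls, Rpl14, Rpl12 and Rps6 belonged to these dim genes, while Rps4x and Rpl10a did not. Within genes with several probe sets, the dimmest one fell further than the brightest by over 1 log2 unit in 6 genes. It fell less by over 1 in 2 genes, as set out below. Among the 37 measured genes with a listed promoter, a TOP-like tract was found in 20 of the 24 that fell in RS (83.3%) and in 10 of the 13 that did not (76.9%). CCGGAAG was found in 45.8% of those that fell and in 61.5% of those that did not. The ratio of 3' to 5' probe sets of Gapdh, a sign of RNA quality, was -0.01 to 0.20 on the log2 scale in RS and -0.43 to -0.36 in PGC, and that of Actb was 0.46 to 0.49 in RS and 0.47 to 0.70 in PGC. The 13 measured fetal gonad somatic markers of 15 summed to 1144.2 to 1376.9 units in RS and 4779.4 to 5802.6 in PGC, and the 10 measured blood and endothelial markers of 13 to 1075.9 to 1226.6 in RS and 13771.7 to 14775.9 in PGC, with Hbb-y at the floor on all RS arrays. Hbb-y carried that sum, at 11649 ± 408 units in PGC (SD, n = 3). Of these 10 markers, 4 were called higher in RS and 4 lower. The part of these measures in the result was not tested.

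**Figure D2:**
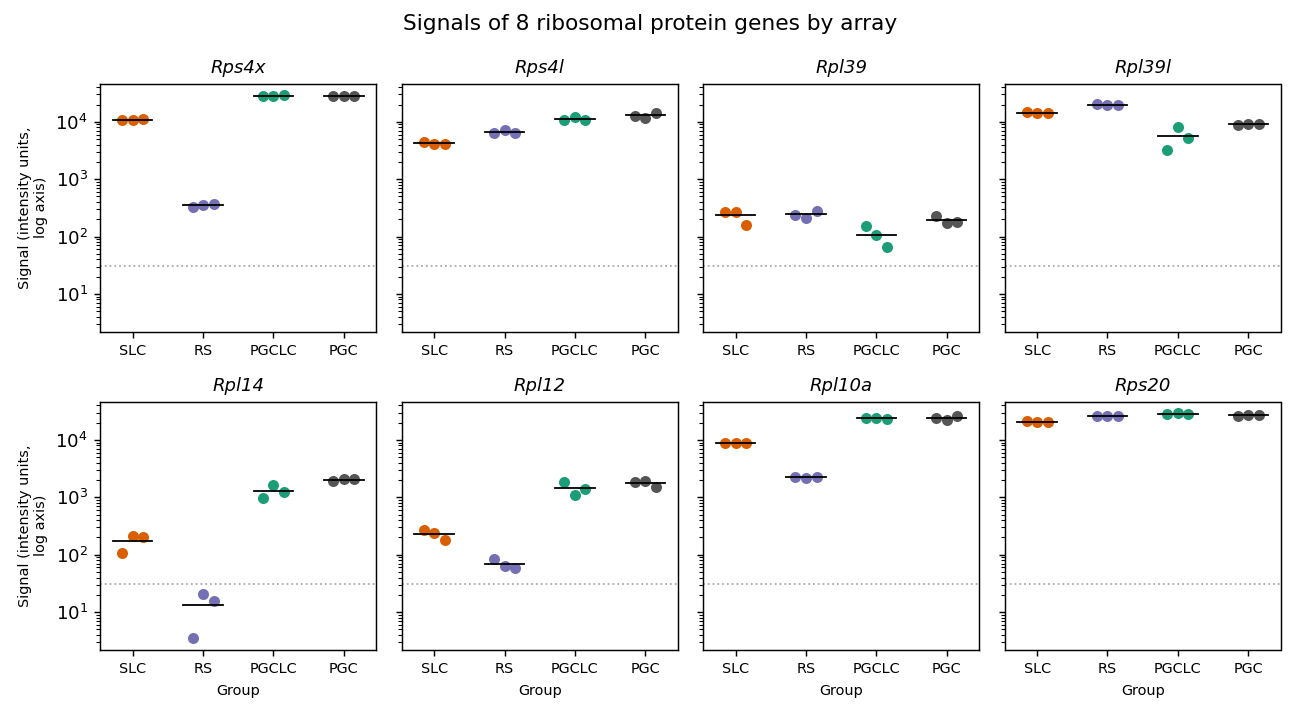
Signal of 8 ribosomal protein genes on each array (intensity units, log axis), with a panel per gene, points for the 3 arrays of SLC, RS, PGCLC and PGC, a line at each mean and a dotted line at the floor of 30.7 units. Rps4x, Rpl14, Rpl12 and Rpl10a lie lowest in RS and in between in SLC, while Rps20 stays above 20000 units in every group.

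X-linked genes and paralogs differed in their calls. Both X-linked members were measured. Rps4x fell as above, while Rpl39, which lines the exit tunnel of the 60S subunit, measured 240, 213 and 275 units in RS, against 228, 174 and 177 units in PGC, with overlap and without a call. Rpl39l, the autosomal paralog of Rpl39 on chromosome 16, measured 20109, 19784 and 19281 units in RS, against 8742, 9248 and 9301 units in PGC. It rose 2.17-fold (log2 difference 1.12 ± 0.23, limma, adjusted p = 6.66e-04) and was the single gene of the family to rise in RS. Rps4l, the autosomal S4 paralog on chromosome 6, measured 6269, 7075 and 6312 units in RS, against 12821, 11688 and 14272 units in PGC. All RS arrays lay below all PGC arrays, but the change of 1.97-fold was short of the call. Of all 472 X-linked genes tested, 274 were called lower in RS and 90 higher, where 37.7% and 31.8% of all genes were. The X-linked median log2 difference was -1.52, against -0.19 for the 13725 genes not on the X chromosome.

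Between PGCLC and SLC, the stage difference in culture, most of the family was lower again. In SLC 19 of the 43 genes were called lower than in PGCLC, against 27.4% of all genes, and 2 were called higher, against 29.9% of all genes. Arrays did not overlap in 40 genes lower in SLC (38.5% of all genes) and in 2 higher (38.1%). The median log2 difference was -0.96, with quartiles of -1.29 and -0.64, against a median of -0.07 for all genes tested. In the 40S subunit 8 of 20 genes fell, and in the 60S subunit 11 of 23 fell and 2 rose. Without a minimum fold, 40 of the 43 genes were lower (38.6% of all genes) and 2 higher (37.3%) at an adjusted p under 0.05.

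Rpl14 measured 106, 208 and 207 units in SLC, against 969, 1607 and 1232 units in PGCLC, and fell 7.49-fold (log2 difference -2.91 ± 0.26, limma, adjusted p = 6.36e-07). Rpl12 measured 269, 242 and 183 units in SLC, against 1837, 1112 and 1402 units in PGCLC, a fall of 6.22-fold (limma, adjusted p = 3.65e-07). Rps6 measured 224, 257 and 202 units in SLC, against 1049, 1222 and 1065 units in PGCLC, a fall of 4.90-fold (limma, adjusted p = 6.91e-07). In each of these genes, which also led the falls in RS, no SLC array reached a PGCLC array. Rps15, a 40S protein, averaged 6289 ± 196 units in SLC and 19353 ± 733 units in PGCLC (SD, n = 3 each), a fall of 3.08-fold. Rps4x measured 10725, 10726 and 10995 units in SLC, against 28260, 28230 and 29420 units in PGCLC. It fell 2.65-fold (log2 difference -1.40 ± 0.05, limma, adjusted p = 2.69e-10), where autosomal Rpl10a fell by 1.45.

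Rpl39l measured 15044, 13962 and 14158 units in SLC, against 3284, 8067 and 5285 units in PGCLC, and rose 2.77-fold (limma, adjusted p = 9.53e-05), with no overlap and with the PGCLC arrays far apart. Rpl39 measured 266, 272 and 161 units in SLC, against 153, 107 and 65 units in PGCLC, and rose 2.22-fold (limma, adjusted p = 0.0050). That call was lost without PGCLC replicate 3, where the log2 difference was 0.82. Rps4l measured 4518, 4134 and 4029 units in SLC, against 10634, 11947 and 10848 units in PGCLC, and fell 2.64-fold. Rplp0, Rplp2, Rpl38 and Rps27l had log2 differences of -0.70, -0.67, -0.52 and -0.67 and were not called, nor was Rps27, at -0.15, while Rpl22 fell by 1.34 and Rpl11 fell by 1.01. The call of Rpl11 was lost when SLC replicate 2, SLC replicate 3 or PGCLC replicate 2 was left out, with log2 differences of -0.95, -0.998 and -0.97. In all, 18 genes fell in both stage comparisons, 8 in RS alone and 1, Rps4l, in SLC alone. These counts side by side are no test of a difference between the settings, and the same overlap was not counted over all genes. Rps4l was short of the call in RS at 1.97-fold. Testis somatic markers, 19 measured of 21, summed to 107485 to 108879 units in SLC, against 20614.9 to 23006.5 units in PGCLC, and their part in these values was not tested.

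**Figure D3:**
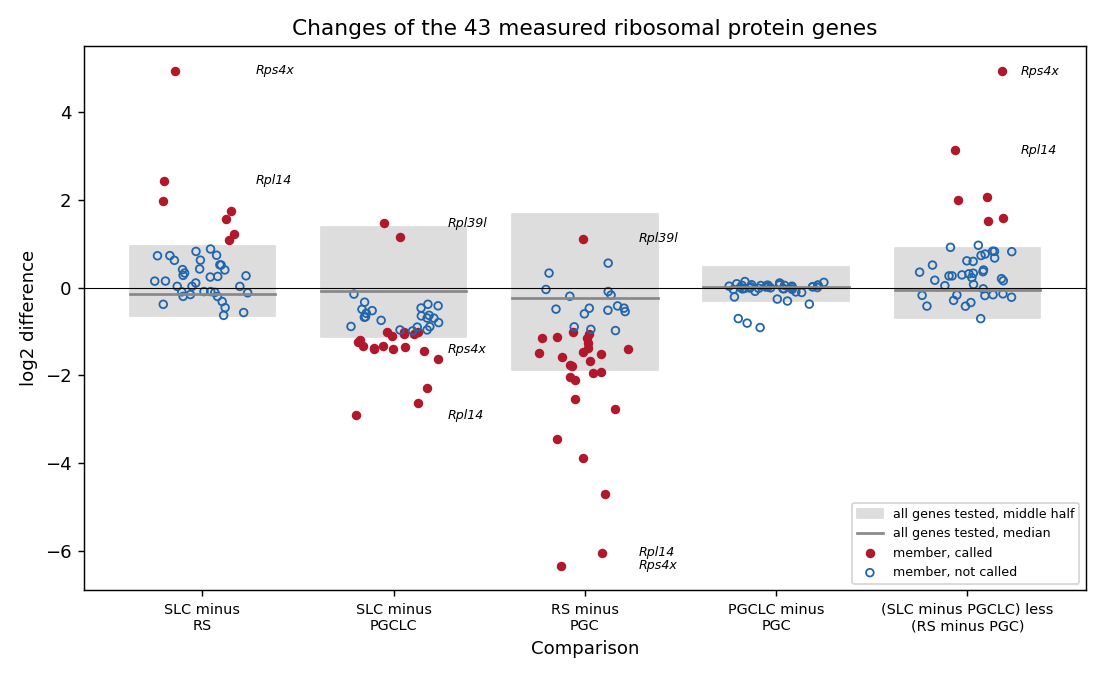
Log2 differences of the 43 measured ribosomal protein genes for, left to right, SLC minus RS, SLC minus PGCLC, then RS minus PGC, PGCLC minus PGC and the difference between both stage changes. Filled points are called genes, open points are not called, grey boxes span the lower to upper quartile of all genes tested and grey lines are their medians. The points spread furthest in RS minus PGC, where Rps4x is at -6.33, and least in PGCLC minus PGC.

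Set directly against RS, SLC had 7 of the 43 genes called higher and none called lower, where 24.0% of all genes tested were called higher and 3.44% lower. At an unadjusted p under 0.05 in the same limma fit, 25 genes were higher (32.9% of all genes) and 7 lower (34.5%), and without a minimum fold 25 were higher (32.0%) and 6 lower (31.8%). The arrays did not overlap in 24 genes higher in SLC (34.5% of all genes) and in 10 lower (40.5%). The median log2 difference of the family was 0.27, against -0.15 for all genes. It was 0.0091 when each array was centred on its median, which moved the median of all genes to -0.40, so that relative to all genes the family stood 0.42 and 0.41 higher. With quantile normalization it stood 0.97 higher, with 12 members called higher, against 19.7% of all genes, and 1 lower, against 15.8%. The split of calls over all genes also moved: 87.5% of called genes were higher in SLC, against 54.1% with median centring and 55.6% with quantile normalization.

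Rps4x had 10725 to 10995 units in SLC, against 331 to 363 in RS, and rose 30.8-fold (log2 difference 4.94 ± 0.05, limma, adjusted p = 1.65e-13). Rpl14, whose RS arrays all lay under the floor, rose at least 5.40-fold (limma, adjusted p = 7.91e-06). Rpl10a measured 8882, 8749 and 8681 units in SLC, nowhere near the 2197 to 2262 units of RS, and rose 3.93-fold (limma, adjusted p = 2.36e-10). Rpl12 rose 3.38-fold, Rps3, a 40S protein at the mRNA entry channel, 2.94-fold, Rps6 2.33-fold and Rps19, the 40S protein mutated in Diamond-Blackfan anaemia, 2.12-fold. The dimmest probe set of Rps3 gave a log2 difference of -0.97. The other probe set of Rps3 past the filter gave 2.22. The call of Rps6 was lost without RS replicate 1, where the log2 difference was 0.95, and also with median centring and with quantile normalization, at 0.96 and 0.83. That of Rps19 was lost with median centring, at a log2 difference of 0.82. Rpl39l and Rps4l lay lower in SLC on every array, by log2 differences of -0.46 and -0.63, and were not called. Rplp0, Rplp2, Rpl11, Rpl22, Rpl38, Rpl39 and Rps27l were not called either, with log2 differences between -0.12 and 0.63, nor was Rps27, at -0.57.

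Marker genes of other cell types also differed in this comparison. The 19 measured testis somatic markers of 21 summed to 107485 to 108879 units in SLC and 3611.3 to 4491.1 in RS, and 18 of them were called higher in SLC. The largest SLC means on this list were those of Col1a2, Col3a1, Acta2 and Vim, at 21947, 20402, 15545 and 11963 units. Cyp11a1, the first enzyme of steroid synthesis, was at the floor on all RS arrays. Cyp17a1, on the same list, went the other way without a call, at 34 ± 25 units in SLC and 109 ± 34 in RS (SD, n = 3 each). The 13 measured fetal gonad somatic markers summed to 37047.2 to 38217.3 units in SLC and 1144.2 to 1376.9 in RS, and the 10 blood and endothelial markers to 1383.3 to 1728.9 in SLC and 1075.9 to 1226.6 in RS. The 12 spermatid markers lay lower on the SLC arrays than on any RS array. Gapdh had a 3' to 5' log2 ratio of -0.56 to -0.43 in SLC, against -0.01 to 0.20 in RS, while Actb overlapped, at 0.33 to 0.60 in SLC and 0.46 to 0.49 in RS. X-linked genes as a whole were called higher in SLC in 210 of 472 cases and lower in 9, where 24.0% and 3.44% of all genes were. The part of these differences in the values of the ribosomal protein genes was not tested.

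The difference between both stage changes was tested directly, with the change of the animal (RS minus PGC) subtracted from that of culture (SLC minus PGCLC). It was called above 0 for 6 genes, where 21.1% of all genes were, and below 0 for none, against 11.2% of all genes. At an unadjusted p under 0.05 in this limma fit, 21 genes were above 0 (29.1% of all genes) and 7 below (26.5%), and without a minimum fold 21 were above 0 (26.5% of all genes) and 6 below (22.0%). The 6 genes were Rps4x, at 4.93 on the log2 scale (limma, adjusted p = 8.48e-12), Rpl14 at 3.14, Rpl12 at 2.06, Rpl10a at 1.997, Rps6 at 1.60 and Rps3 at 1.52, all lower in RS relative to PGC than in SLC relative to PGCLC. The fit for Rpl14 rests on RS arrays at the floor, and the dimmest probe set of Rps3 gave -0.40, without a call. With quantile normalization 14 genes were called above 0, against 17.1% of all genes, the family's median was 0.58, and the call of Rps6 was lost (1.24, limma, adjusted p = 0.0509). Rpl39l, at 0.35 (adjusted p = 0.387), and Rpl39, at 0.82 (adjusted p = 0.141), were not called in limma, and the other paralogs, stalk genes and p53-linked genes lay between -0.71 (Rps27) and 0.73 (Rps27l). The median of the family was 0.32, against -0.04 for all genes.

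In the fetal stage the family's median was level between culture and animal with the authors' scaling. No gene of the 43 was called in PGCLC minus PGC, where 10.4% of all genes tested were called higher and 1.62% lower. At an unadjusted p under 0.05, limma gave 2 higher and 5 lower, where 22.7% and 20.4% of all genes were, and without a minimum fold 1 higher and 2 lower, where 16.7% and 13.4% were. The arrays did not overlap in 2 genes higher in PGCLC (20.8% of all genes) and in 7 lower (20.6%). The median log2 difference was 0.01 for the family and 0.01 for all genes. It differed little between the PGCLC arrays, whose family medians lay 0.01, 0.03 and -0.03 from the PGC mean. PGC markers, at 29859.5 to 60590 units in PGCLC, ranged more widely between these arrays. So did fetal gonad somatic markers, at 4727.6 to 13652.7 units, and blood and endothelial markers, at 4447.5 to 17635.9 units. Each of these sums was highest in PGCLC replicate 2. Over all genes tested, that array correlated at 0.97 with each PGC array, and at 0.91 and 0.96 with PGCLC replicates 1 and 3. The part of this spread in the contrast was not tested. With median centring the family's median difference was -0.30, and that of all genes -0.23, and 3 members were called lower, against 6.22% of all genes. With quantile normalization 1 was called lower, against 2.66% of all genes.

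Rps4x measured 28260 to 29420 units in PGCLC and 28033 to 28526 units in PGC. The differences furthest from 0 were those of Rpl39, at -0.91 ± 0.31 on the log2 scale (limma, adjusted p = 0.0453), Rpl39l, at -0.81 ± 0.23 (adjusted p = 0.0230), and Rpl14, at -0.70 ± 0.26 (adjusted p = 0.0571), all short of 2-fold. Both Rpl39 and Rpl39l had every PGCLC array below every PGC array, with the Rpl39 signal dim in both groups. Rpl39 was past both thresholds without PGCLC replicate 1, at -1.20, and Rpl39l without PGCLC replicate 2, at -1.13. Rps6 and Rps4l lay at -0.37 and -0.21, while Rplp0, Rplp2, Rpl11, Rpl22, Rpl38, Rps27 and Rps27l lay between -0.11 and 0.14, and none was called. Over all genes, 86.5% of the called genes were higher in PGCLC, against 53.1% with median centring and 73.9% with quantile normalization.

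Several genes had more than 1 probe set, and these did not always give the same difference. The 45 genes had 98 probe sets, of which 92 passed the filter, and 19 genes had more than 1 of them. Between RS and PGC, the dimmest probe set lay within 1 log2 unit of the brightest in 11 genes. In 6 genes it was lower by more than that. Rpl13a differed by -1.16 with the brightest and -4.62 with the dimmest, Rpl22 by -1.95 and -5.45, and Rps20 by -0.04 and -2.57. In SLC minus RS the same dim probe set of Rps20 gave 1.49, against -0.32 with the brightest. Rpl41, Rpl37a and Rps9 were the others, with -2.52, -1.86 and -3.01 for the dimmest. Rps9 had another probe set past the filter, at 2.49, and its call was lost with the mean of its probe sets, at -0.70. In 2 genes, Rps24 and Rps3, the dimmest probe set went the other way, at 0.96 and 2.09. The other probe set of Rps3 gave -6.47. For these 8 genes the size or the direction of the difference depended on the probe set. Probe sets between the brightest and the dimmest were not part of this count, and some of them also differed. A probe set of Rps10 at 21370 ± 1368 units in PGC (SD, n = 3) gave -4.58, against -1.02 with the brightest. For Rps24, a probe set at 3144 ± 542 units in PGC gave -4.80. Rps4x and Rpl14, which led the comparison, each had a single probe set past the filter.

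**Figure D4:**
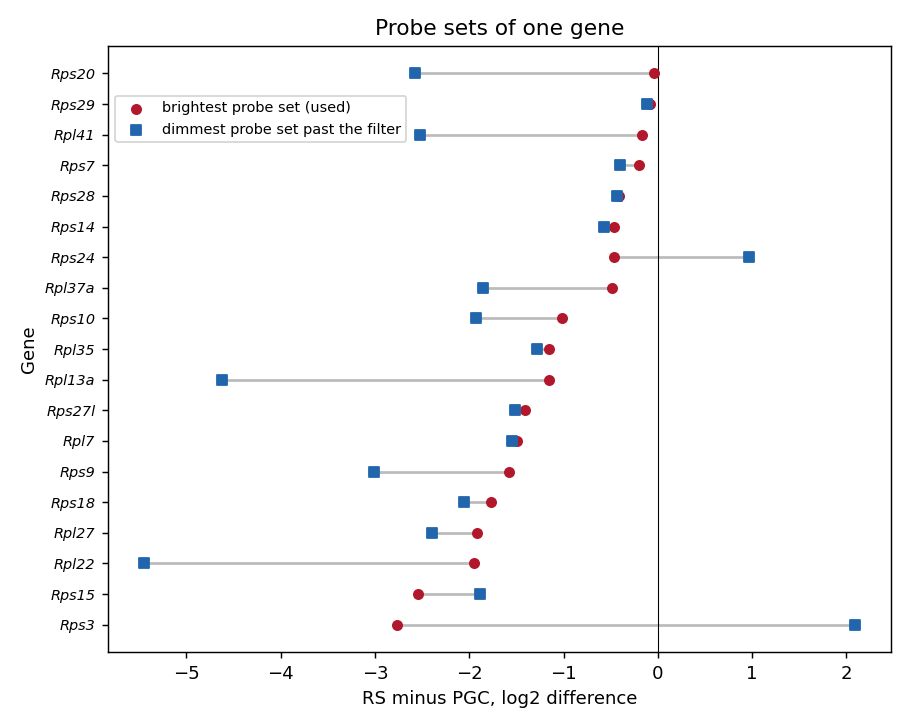
RS minus PGC log2 difference of the brightest (circle, used for the results) and the dimmest (square) probe set past the filter, for the 19 ribosomal protein genes with more than 1, joined by a line for each gene. The dimmest probe set of 6 genes lies over 1 log2 unit lower, as in Rpl22, and that of Rps24 and Rps3 lies above 0.

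Other genes of the pathway were read from fixed lists. Of 43 measured ribosome biogenesis genes of 44, 35 fell and 1 rose in RS against PGC (median log2 difference -2.49), and 32 fell in SLC against PGCLC (median -1.86). Nop56, a box C/D snoRNP core protein, fell by 5.09 on the log2 scale and Rrs1, a 60S assembly factor, fell by 4.96 in RS, while Dkc1, the pseudouridine synthase of box H/ACA snoRNPs, fell by 4.05 and Polr1b, a subunit of RNA polymerase I, fell by 3.68 in SLC. Against RS, 4 of these genes rose in SLC and none fell (median -0.16), among them Rrs1 by 1.70 and Nop56 by 1.51. In PGCLC against PGC none was called. At an unadjusted p under 0.05, limma gave 31 lower and none higher, where 20.4% and 22.7% of all genes were. The test of the difference between stage changes called 11 above 0 and none below. At an unadjusted p under 0.05 in limma, 16 were above and 2 below, where 29.1% and 26.5% of all genes were. As shares of the list, these calls were 81.4% lower in RS, against 37.7% of all genes, 74.4% lower in SLC against PGCLC, where 27.4% of all genes were, 9.30% higher in SLC against RS, where 24.0% were, and 25.6% above 0 in the difference, where 21.1% were.

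The 76 ribosomal proteins of mitochondria, which are made from nuclear genes for another ribosome, were a second point of comparison. In RS against PGC 44 fell and 1 rose (median -1.24), with Mrpl23 at -4.64 and Mrps24 at -4.07. In SLC against PGCLC 36 fell (median -0.88), led by Mrps27 at -2.62 and Mrpl19 at -2.61. Against RS, 7 rose in SLC and none fell, with Mrpl27 at 2.13 and Mrpl23 at 1.59. At an unadjusted p under 0.05 in limma, 20 were higher and 28 lower in SLC, where 32.9% and 34.5% of all genes were. As shares of the list, the calls were 57.9% lower in RS, against 37.7% of all genes, 47.4% lower in SLC against PGCLC, where 27.4% were, and 9.21% higher in SLC against RS, where 24.0% were. In PGCLC against PGC none was called in limma, where 10.4% of all genes were called higher and 1.62% lower. At an unadjusted p under 0.05 in limma, 58 were lower and none higher, where 20.4% and 22.7% of all genes were. The median was -0.38, against 0.01 for the cytosolic family. Of that family, 25 genes had a mean above 20000 units in PGC. Among its 8 genes under 6000 units in PGC, Rpl39, Rpl14 and Rps6 differed by -0.91, -0.70 and -0.37. Rpl12, Rpl37 and Rps25 differed by -0.30, -0.26 and -0.04, and Rpl27a and Rps27 by 0.09 and 0.14. The part of brightness in this contrast was not tested. The mitochondrial list held 0.358% ± 0.016 of the summed signal in SLC, 0.396% ± 0.014 in RS, 0.546% ± 0.029 in PGCLC and 0.704% ± 0.0080 in PGC (SD, n = 3 each).

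Of 17 measured translation factors and partners with TOP mRNAs, of 18 listed, 6 fell in RS against PGC and 6 in SLC against PGCLC. In SLC against RS 3 rose, and none was called in PGCLC against PGC. There 2 were lower and none higher at an unadjusted p under 0.05 in limma, where 20.4% and 22.7% of all genes were. The shares were 35.3% lower in RS, against 37.7% of all genes, 35.3% lower in SLC against PGCLC, where 27.4% were, and 17.6% higher in SLC against RS, where 24.0% were. Eif2s3x, an X-linked subunit of the initiation factor that brings the initiator tRNA, fell by 4.45 on the log2 scale in RS against PGC, fell by 2.21 in SLC against PGCLC, and rose by 2.55 in SLC against RS. Eif4b, a cofactor of the helicase that unwinds mRNA leaders, fell by 3.42 in RS and fell by 2.16 in SLC against their PGC stages, and rose by 1.44 in SLC against RS, where its dimmest probe set gave -0.61.

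Among 15 measured regulators of ribosome synthesis of 18, 9 fell and 2 rose in RS against PGC, and 7 fell and 2 rose in SLC against PGCLC. In SLC against RS 5 rose and none fell. At an unadjusted p under 0.05 in limma, 6 were higher and 6 lower in SLC against RS, where 32.9% and 34.5% of all genes were. The shares were 60% lower in RS, against 37.7% of all genes, 46.7% lower in SLC against PGCLC, where 27.4% were, and 33.3% higher in SLC against RS, where 24.0% were. Mycn, a MYC-family transcription factor, had 111, 104 and 77 units in SLC and 146, 103 and 141 units in RS, against 4108, 4534 and 4324 units in PGCLC and 4879, 4984 and 4552 units in PGC. It fell in both stage comparisons, with log2 differences of -5.22 in RS and -5.49 in SLC, while its dimmest probe set gave 0.92 and 0.97, without a call. Max, the partner of MYC proteins, fell by 3.83 in RS against PGC, and Eif4ebp1, an mTOR target that binds the cap factor, rose by 2.20 in SLC against RS. Myc, the relative of Mycn, had 1429, 1516 and 1535 units in SLC, against 2, 9 and 6 units in RS, all under the floor. It rose at least 48.5-fold (limma, adjusted p = 4.50e-09). Myc also rose in PGCLC against PGC, by 1.08 (limma, adjusted p = 0.0101), the single call in that list there.

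Of a list of 13 ribosomal proteins and paralogs drawn up for genes outside the symbol rule, 7 were measured. Rps4l is on this list but does meet the rule, and it is also counted among the 43 members. In RS against PGC, Rpl7l1 fell by 3.64, Rsl24d1, a 60S assembly factor, fell by 2.78, Rpsa, a 40S protein also known as the laminin receptor, fell by 2.43 and Rps3a1, of the 40S subunit, fell by 1.96. The dimmest probe set of Rpl7l1 gave -0.58 there, without a call. Fau, Rpl22l1 and Rps4l differed by -0.63, -0.35 and -0.98 and were not called. In SLC against RS, Rpl7l1 rose by 1.30 and Rps3a1 by 1.01, the second short of 2-fold without SLC replicate 3 (0.998) or RS replicate 1 (0.93). In SLC against PGCLC, Rsl24d1, Rpl7l1, Rpsa and Rps4l fell. The testis poly(A) binding paralog Pabpc2 rose in RS against PGC by 8.04 and in SLC against PGCLC by 7.55. Pabpc6, which lay under the floor on all PGC and PGCLC arrays, rose at least 309-fold in RS against PGC and at least 192-fold in SLC against PGCLC, and Pabpc4 rose in SLC against RS by 2.69. Of that list 8 of 11 genes were measured, of which 3 rose and 2 fell in RS against PGC, where 31.8% and 37.7% of all genes did.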

How the data were processed

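RNA of 12 samples, 3 in each of 4 groups taken from the sample titles, was measured on Affymetrix 3' arrays. The authors deposited linear intensity values for 45101 probe sets; MAS5 is named in the submitters' processing notes, without a version. Its background settings and detection calls were not given in the sources used here. All arrays had a 2% trimmed mean of 500.0, and all 12 value columns were mapped to samples. The number of arrays limits the precision.

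The authors' scaling was kept. Values were floored at the 25th percentile of the table (30.7 units), and log2 was computed from the deposited intensity. Probe sets that were controls (64), had several symbols (932) or none (9160) were left out. Names came from the platform annotation, and 34741 of 34945 probe sets with a single symbol matched a RefSeq gene by Entrez identifier. Probe sets had to exceed the table's median (92.0 units) on 3 or more arrays, and the probe set with the highest mean stood for each of 14197 genes.

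The 4 group means of all arrays were fitted together in limma 3.58.1 (R 4.3.3) with an intensity trend, so each gene has a single variance over the groups. The Benjamini-Hochberg adjustment ran over the p-values of all genes tested. The fit was tested on simulated data. Folds come from mean log2 values, and "at least" marks a fold against a group under the floor on every array.

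Genes are named by rule: in each comparison the 4 largest rises and falls among called members whose arrays do not overlap, the X-linked, paralog, stalk and p53-linked members with Rps6 and Rpl38, the 2 largest changes of each pathway list and all ribosomal proteins outside the symbol rule. Other named members were chosen after their values were seen. The members, lists and rules were chosen with earlier results of these data known. The alternatives were the scaling, floor, filter, choice of probe set, fold minimum, samples in the fit, replicate block and each array left out.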

Additional observations from a re-analysis of the deposited data

Results flagged for a closer look

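In 6 ribosomal protein genes the stage change differed between culture and animal by the limma test of the difference itself (the change of SLC over PGCLC, with that of RS over PGC taken away). These were Rps4x at 4.93 on the log2 scale, Rpl14 at 3.14, Rpl12 at 2.06, Rpl10a at 1.997, Rps6 at 1.60 and Rps3 at 1.52. They made up 14.0% of the 43 genes tested, where 21.1% of all genes were called above 0. Rpl14 rests on RS arrays at the floor, the call of Rps6 was lost with quantile normalization, and the dimmest probe set of Rps3 gave -0.40. Groups of 3 arrays are too small for a test of single outlying samples.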

How the results depend on the processing

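The limits are 3 arrays a group, probe sets near the top of the intensity range, several probe sets per gene, and linear values whose background settings were not given in the sources used here. With median centring, members called lower in PGCLC minus PGC numbered 3, near the 6.22% of all genes (median change -0.30), the median of SLC minus RS was 0.0091 and that of SLC minus PGCLC -0.87. With quantile normalization, 1 was called lower in PGCLC minus PGC, 12 higher and 1 lower in SLC minus RS (median 0.64), and 14 higher in the difference of stage changes (median 0.58), and the median of SLC minus PGCLC was -0.67. Without a minimum fold, members called were 1 higher and 2 lower in PGCLC minus PGC, 25 higher and 6 lower in SLC minus RS, 40 lower in SLC minus PGCLC, and 21 higher and 6 lower in the difference of stage changes. Without the filter the median of SLC minus PGCLC was -0.90. With the mean of all probe sets, with probe sets whose names hold no a, s or x, or with the dimmest probe set (chosen after seeing the data), it was -1.02 each, and that of RS minus PGC was -1.38, -1.47 and -1.50. The dimmest probe set called 2 members higher in RS minus PGC. It also turned the direction of Mycn in RS minus PGC (0.92, adjusted p = 0.0832) and in SLC minus PGCLC (0.97, adjusted p = 0.0760), of Eif4b in SLC minus RS (-0.61) and in the difference of stage changes (-0.74), and of Rps3 in RS minus PGC (2.09), in SLC minus PGCLC (1.69), in SLC minus RS (-0.97) and in the difference of stage changes (-0.40). Rps20 turned to 1.49 in SLC minus RS and 1.38 in the difference of stage changes, both with the dimmest probe set and with names that hold no a, s or x, and Rps24 to 1.55 in that difference with the second of these. Beyond the dropped fold minimum and the change of probe set itself, the cause was not tested.

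Leaving out each array in turn gave medians of -0.03 to 0.05 in PGCLC minus PGC, 0.24 to 0.29 in SLC minus RS, -0.98 to -0.93 in SLC minus PGCLC, -1.19 to -1.12 in RS minus PGC and 0.26 to 0.38 in the difference of stage changes. Calls higher numbered 0 in PGCLC minus PGC, 6 to 7 in SLC minus RS, 1 to 2 in SLC minus PGCLC, 1 in RS minus PGC and 6 to 8 in the difference of stage changes. Calls lower numbered 0 to 1, 0, 17 to 20, 24 to 28 and 0 in the same order. Over all members, comparisons and alternatives, 4713 values kept their call or lack of one, 32 lost the call, 148 gained it and 9 turned, those of Rps3, Rps20 and Rps24.

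Replicate numbers did not pair the arrays: the correlation of deviations passed 0.1 in 1 of 18 same-number pairs, with a range of -0.02 to 0.13. With the replicate block, members called were 7 higher in SLC minus RS, 2 higher and 19 lower in SLC minus PGCLC, 1 higher and 26 lower in RS minus PGC, 6 higher in the difference of stage changes and 0 in PGCLC minus PGC, as without it.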

Other observations

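A probe set of Rps9 that the results did not use stood apart within PGCLC. It measured 10360, 1758 and 8157 units in PGCLC, against 672, 423 and 1075 units in PGC, and 4599, 3507 and 3345 units in RS. The brightest probe set of Rps9 averaged 18139 ± 570 units in PGCLC and 18086 ± 1107 units in PGC (SD, n = 3 each).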
